A study of Mus musculus with 12 samples.

Results

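The 9 genes described here, Neurod1, Fat2, Etv1, Zic1, Zic2, Reln, Slc17a7, Calb2 and Pax6, mark granule cells of the mouse cerebellum. The rule that takes them is their names, with no threshold on a measured value, and they are 9 of the 55401 gene identifiers counted in each library. All 9 passed the filter on low counts and are among the 19378 genes tested.

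Granule cells are small glutamatergic neurons that fill the granular layer, receive mossy fibre input and send parallel fibres to Purkinje cells. They arise from precursors of the rhombic lip, whose descendants keep several transcription factors into adulthood, among them PAX6, the ZIC zinc finger proteins and NEUROD1. Mature granule cells also secrete reelin and load their vesicles with glutamate through VGLUT1, the product of Slc17a7.

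The data are RNA-seq gene counts from the cerebella of 12 animals, each with its own library and 4 to a group, collected to ask what an expanded Atxn1 allele and a compound called Hit 2 do to RNA levels. The 8 knock-in mice ("Het") had the genotype Atxn1154Q/2Q, in which 1 allele of the mouse Atxn1 gene carries a long CAG repeat, a model of spinocerebellar ataxia type 1, and the 4 controls were wild-type (WT) mice. All 12 were injected intraperitoneally with DMSO (under 4 ml/kg) from 18 weeks of age, daily for 5 days and, after 2 days of rest, for 5 days more, and tissue was taken at 20 weeks after perfusion. Libraries 413, 425, 426 and 431 are WT mice given DMSO alone, and libraries 409, 411, 420 and 429 are Het mice given DMSO alone. Libraries 410, 421, 422 and 430 are Het mice whose DMSO carried Hit 2 at 25 mg/ml. No wild-type mice given Hit 2 are among the 12, so the compound can be compared only within knock-in mice. Gene counts do not show the length of a repeat, and Atxn1 itself was counted at 142 to 174 CPM (read counts scaled to library size, edgeR's normalised counts) in WT DMSO, 157 to 186 in Het DMSO and 137 to 181 in Het Hit 2. The tissue is bulk, so that fewer granule cells and less RNA per granule cell cannot be told apart.

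Depth ran from 15855751 to 45265719 gene reads per library. Across all genes, edgeR's quasi-likelihood test on all 12 libraries called 1 gene between Het DMSO and WT DMSO, 0 between Het Hit 2 and Het DMSO (301 genes at an unadjusted p under 0.05, and 0 called by DESeq2 or by limma with library weights), and 1 between Het Hit 2 and WT DMSO. A pair of Het DMSO libraries stood apart, 411 in the levels of cerebellar genes and 409 across the transcriptome: at least 1.5-fold away from the median of the other libraries were 31% of genes on the low side and 20.8% on the high side in library 409. In a limma fit that weights libraries by their spread, the weight of 409 was 0.0412 and that of 411 was 0.118, against 0.621 to 3.47 for the others. Results below are therefore given with and without these libraries.

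In library 411, which is labelled cerebellum like the others, the granule cell markers were low, and all 9 lay below every other library. Fat2, an atypical cadherin of granule cells and their parallel fibres, was counted at 2.57 CPM there, 860-fold below the median of the other 11 libraries. Slc17a7 was at 1.67 CPM, 216-fold lower, and Neurod1, a basic helix-loop-helix factor of granule cell differentiation, at 1.92 CPM, 111-fold lower. The paired box factor Pax6 was 36.2-fold lower at 3.89 CPM. Zic1 was 32.9-fold lower and its neighbour in function Zic2 27.7-fold lower, while the ETS factor Etv1 (9.95-fold) and Reln (8.27-fold) kept more of their level. Calb2, which encodes the calcium-binding protein calretinin, was the least affected, at 93.1 CPM and 2.38-fold lower. In all, 8 of 9 members were at least 8-fold lower, against 1.51% of all genes tested. No member was at 0 in any library.

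**Figure D1:**
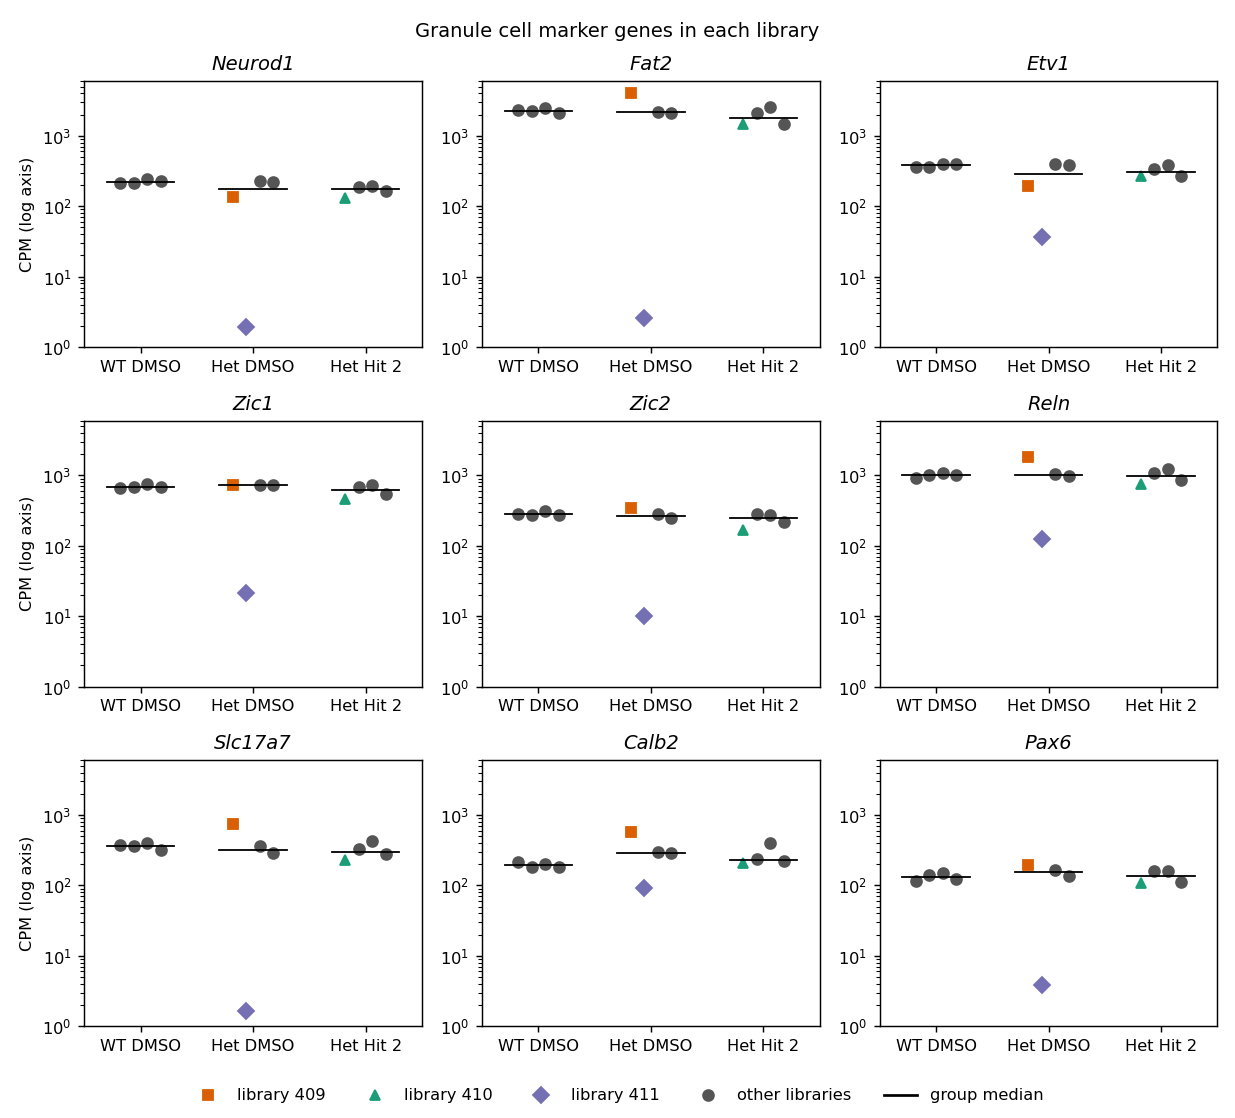
Level of each of the 9 markers (CPM, log axis) in every library, by group, with a line at the group median. Library 411 (diamond) lies below all other libraries in every panel, where it ranges from 1.67 CPM for Slc17a7 to 124 CPM for Reln, and library 409 (square) is the highest library for 6 genes but low for Neurod1 and Etv1.

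Other genes of granule cells were low in library 411 as well. Of 12 further granule cell genes, all were below the median of the other libraries and 7 were at least 8-fold lower, with a median log2 difference of -4.12. The GABA-A receptor subunit genes Gabra6 and Gabrd were at 0.606 and 0.353 CPM there, against 227 to 388 and 74.3 to 253 CPM elsewhere. Barhl1 was an exception at 10.9 CPM, inside the range of the others. Relatives of the members followed in part: Neurod2 was at 1.97 CPM, Zic4 at 3.84 CPM and Zic5 at 1.56 CPM, each below all other libraries, whereas Fat3 and Fat4 were 3.61-fold and 3.19-fold higher than the median of the others.

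Genes of other brain regions and cell types moved with this library. The summed level of 9 midbrain and brainstem genes was 148 CPM in library 411 and 1.75 to 50.6 CPM elsewhere. None of the 9 was at 0 in library 411, as in library 430, while 1 to 5 of them were at 0 in each of the others. Slc6a3, the dopamine transporter, was at 36.2 CPM there and at most 1.10 CPM in the others, and the factor Gata3 was at 31.1 CPM against at most 9.03. Slc17a6 encodes VGLUT2, the vesicular glutamate transporter of brainstem, midbrain and deep nuclear neurons, and was at 278 CPM against at most 84.6. The 10 Purkinje cell genes were all lower, with a median log2 difference of -2.67, and their sum was 749 CPM against 3538 to 7904 elsewhere. The 6 oligodendrocyte genes summed to 6417 CPM against 1248 to 5371. The defining genes of granule cells and Purkinje cells were thus low in a library labelled cerebellum, and the part of the other tissue in this was not tested.

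**Figure D2:**
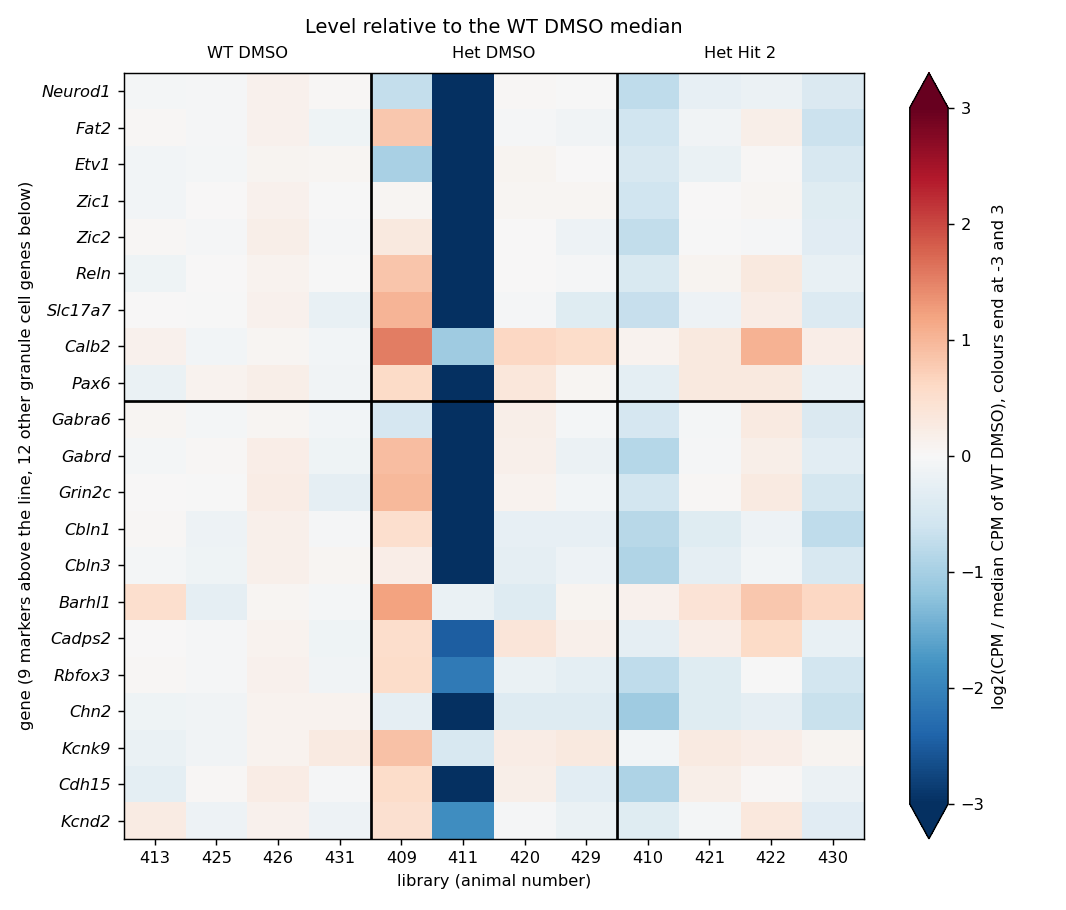
Level of the 9 markers (above the line) and 12 other granule cell genes (below) in each library as log2 of the ratio to the WT DMSO median, with colours ending at -3 and 3. The column of library 411 is dark for nearly every gene, with Calb2, Barhl1 and Kcnk9 the palest, library 409 is mixed in colour, and libraries 410 and 430 are pale blue down most of both lists.

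The promoters of 7 of the 9 genes, as windows of the 250 bases before 9 transcript starts, came from RefSeq with the mouse build GRCm38.p6. Shown are those of Neurod1, Zic1 and Fat2, which code for factors and a surface protein, were among the 6 most depleted of the 9 members in library 411, and differ in makeup. Whether these annotated starts are the ones used in granule cells was not tested. The Neurod1 window is chr2:79456637-79456886 on the minus strand, that of Zic1 is chr9:91365769-91366018 on the minus strand, and that of Fat2 is chr11:55312258-55312507 on the minus strand. Capitals mark the GC box GGGCGG, read on both strands, so that CCGCCC marks the opposite one.
Neurod1: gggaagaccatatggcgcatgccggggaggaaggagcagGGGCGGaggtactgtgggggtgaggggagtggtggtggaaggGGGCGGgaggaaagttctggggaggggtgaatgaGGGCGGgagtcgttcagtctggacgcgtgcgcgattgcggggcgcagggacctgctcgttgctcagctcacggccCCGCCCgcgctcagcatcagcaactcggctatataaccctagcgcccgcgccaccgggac
Zic1: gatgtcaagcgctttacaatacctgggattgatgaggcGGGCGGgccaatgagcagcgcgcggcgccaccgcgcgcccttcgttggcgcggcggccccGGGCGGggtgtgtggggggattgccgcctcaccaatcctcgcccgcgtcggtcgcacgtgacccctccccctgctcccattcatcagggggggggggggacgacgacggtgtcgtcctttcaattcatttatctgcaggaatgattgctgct
Fat2: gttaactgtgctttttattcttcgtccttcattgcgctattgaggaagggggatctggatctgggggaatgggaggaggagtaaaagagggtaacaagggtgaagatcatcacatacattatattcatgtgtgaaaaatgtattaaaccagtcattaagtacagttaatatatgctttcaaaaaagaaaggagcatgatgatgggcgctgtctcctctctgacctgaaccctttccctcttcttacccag
The GC box occurred 4 times in the Neurod1 window and 2 times in that of Zic1, and was found in 4 of the 9 member windows (also in Reln, 6 times, and Slc17a7, 3 times), against 32.7% of 32851 windows of the same length. G and C made up 67.6% of the Neurod1 window, 66.0% of that of Zic1 and 41.6% of that of Fat2, where the median of all windows was 52.4%. The E-box CAGATG was in 1 member window, that of an Etv1 start, against 14.4% of all windows, and the E-box CAGCTG was in 0 against 13.0%. CAGCAGG, a form of the ZIC site, was in 0 member windows against 8.44% of all, and the ETS site CCGGAAG was in 1, that of Reln, against 6.91%, where it shares bases with a GC box. The cyclic AMP response element TGACGTCA was in 1, that of a Pax6 start, against 1.55%. These are matches of letters on both strands and describe the windows only.

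In WT mice the level per kilobase of exon set the 9 genes in an order that was clear except in its upper part. Fat2 was highest at 157 ± 11.5 CPM per kb (SD, n = 4), followed by Zic1 at 123 ± 7.51, Calb2 at 112 ± 8.63 and Zic2 at 99.7 ± 6.63. Neurod1 stood at 82.2 ± 4.65, Slc17a7 at 67.1 ± 6.64, Reln at 42.7 ± 2.76, Etv1 at 28.5 ± 1.66 and Pax6 at 11.3 ± 1.31 CPM per kb. The libraries of Zic1 and Calb2 overlapped, as did those of Calb2 and Zic2, and no other neighbours in the order did. Exon lengths were those of the GENCODE M21 annotation, with all exons of a gene merged. Together the 9 genes took 0.536% to 0.593% of gene reads in WT libraries and 0.0301% in library 411.

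Wild-type mice were close to one another, with coefficients of variation from 5.65% to 11.7% over the 9 genes. Among the transcription factors, Neurod1 was at 213, 215, 241 and 228 CPM in the 4 WT DMSO libraries (413, 425, 426 and 431). In Het DMSO it was at 135 in library 409, 1.92 in 411, 229 in 420 and 221 in 429. With Hit 2 it was at 129.9 in library 410, 187 in 421, 197 in 422 and 163 in 430. Thus the 2 Het DMSO libraries other than 409 and 411 lay inside the WT range, and every Hit 2 library lay below every WT library. Neurod1 was the only 1 of the 9 members for which any groups did not overlap in the 12 libraries, and 3.42% of all genes tested had Hit 2 below WT without overlap. The shares of all genes with no overlap were 2.9% for Hit 2 above WT, 1.94% for Het DMSO above WT and 2.45% below, and 0.635% for Hit 2 above Het DMSO and 0.392% below.

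The fitted log2 fold change of Neurod1 between Het Hit 2 and WT DMSO was -0.41 (SE 0.78, edgeR adjusted p 1.00), where the SE carries the spread that library 411 adds to the fit. An exact two-sided permutation test of its log2 CPM gave p = 0.0286, the smallest that 4 against 4 libraries allow, and 0.771 after Benjamini-Hochberg adjustment over 27 tests of 9 genes in 3 comparisons. Without libraries 409 and 411 the value was -0.42 (SE 0.11) at an unadjusted p of 0.00398 and an edgeR adjusted p of 0.195. It did not pass the threshold when library 410 was left out as well, at -0.30 (SE 0.073, edgeR adjusted p 0.157). Against Het DMSO, the Hit 2 libraries were 0.41 lower (log2 fold change -0.41, SE 0.14, edgeR adjusted p 0.983) without libraries 409 and 411, which leaves 2 Het DMSO libraries. Those groups did not overlap, as for 5.42% of all genes in that direction. With all 12 libraries the sign was the opposite, at 0.21 (SE 0.78, edgeR adjusted p 0.953).

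Pax6, which is needed for the development of granule cell precursors, was at 115, 141, 148 and 123 CPM in the WT libraries. In Het DMSO it was at 197 (409), 3.89 (411), 168 (420) and 138 (429) CPM. In Hit 2 it was at 107 (410), 162 (421), 161 (422) and 113 (430) CPM, so that the 3 groups overlapped. Its log2 fold change between Het DMSO and WT DMSO was -0.06 (SE 0.69, edgeR adjusted p 0.977) with all 12 libraries and 0.20 (SE 0.18, edgeR adjusted p 1.00) without 409 and 411. Between 5.26% and 7.07% of the reads at Pax6 lay on the other strand outside library 411, the largest share among the members, and an annotated antisense gene, Pax6os1, overlaps it. Only the strand of the mRNA was counted here.

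Zic1 and Zic2, zinc finger factors kept by granule cells from precursor to adult, kept close to 1 proportion. Zic1 was at 656, 693, 758 and 690.4 CPM in WT, at 726 (409), 21.0 (411), 723 (420) and 720.2 (429) in Het DMSO, and at 458 (410), 692 (421), 722 (422) and 538 (430) in Hit 2. Zic2 was at 285, 275, 315 and 274 CPM in WT, at 343 (409), 9.94 (411), 283 (420) and 251 (429) in Het DMSO, and at 168 (410), 279.9 (421), 275 (422) and 220.1 (430) in Hit 2. The ratio of Zic2 to Zic1 stayed between 0.348 and 0.472 in all 12 libraries, including 411, where both genes were depleted by about the same factor. For Zic1 the log2 fold change between Het Hit 2 and WT DMSO was -0.21 (SE 0.66, edgeR adjusted p 1.00), and -0.23 (SE 0.13, edgeR adjusted p 0.651) without 409 and 411. Zic2 gave -0.29 (SE 0.65, edgeR adjusted p 1.00) and -0.30 (SE 0.14, edgeR adjusted p 0.562). In both genes the low Hit 2 libraries were 410 and 430, and the other two lay inside the WT range.

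Etv1, an ETS factor of maturing granule cells, was at 356, 364, 401 and 394 CPM in WT. In Het DMSO it was at 194 (409), 36.6 (411), 399.6 (420) and 383 (429). In Hit 2 it was at 269.5 (410), 333 (421), 387 (422) and 273 (430). It resembled Neurod1 in that library 409 was low and that 3 of the 4 Hit 2 libraries were below the WT range, but library 422 overlapped it. Its log2 fold change between Het Hit 2 and WT DMSO was -0.26 (SE 0.50, edgeR adjusted p 1.00), and -0.28 (SE 0.11, unadjusted p 0.0307, edgeR adjusted p 0.459) without 409 and 411.

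At the cell surface, Fat2 was the most abundant member, at 2317, 2239.8, 2494 and 2093 CPM in WT. In Het DMSO it was at 4022 in library 409, 2.57 in 411, 2213 in 420 and 2118 in 429. In Hit 2 it was at 1496 (410), 2126 (421), 2559 (422) and 1452 (430), on both sides of the WT range. The log2 fold change between Het DMSO and WT DMSO was -0.13 (SE 1.03, edgeR adjusted p 0.965) in the 12 libraries, 0.31 (SE 0.26, edgeR adjusted p 0.667) without 411 and -0.09 (SE 0.205, edgeR adjusted p 1.00) without 409 and 411. The sign and the error of Fat2 thus moved with whether libraries 409 and 411 entered.

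Reln encodes reelin, the secreted glycoprotein that signals through the receptors VLDLR and ApoER2 (Lrp8) to the adaptor DAB1. It was at 929.6, 1022, 1089.5 and 1018 CPM in WT, at 1805 (409), 124 (411), 1030.4 (420) and 988 (429) in Het DMSO, and at 742 (410), 1080.5 (421), 1242 (422) and 871 (430) in Hit 2. All 3 groups overlapped, and the fitted log2 fold changes were -0.04 (SE 0.52, Het DMSO against WT DMSO), -0.004 (SE 0.52, Het Hit 2 against Het DMSO) and -0.04 (SE 0.52, Het Hit 2 against WT DMSO), each at an edgeR adjusted p of 0.978 or more. Of 12 other genes of the reelin pathway, 0 were called in any comparison by edgeR, and 0 had an unadjusted p under 0.05 in the 12 libraries. Their median log2 fold changes were 0.07, -0.08 and 0.03 in the same order, with Vldlr at -0.18 (SE 0.14), Lrp8 at -0.08 (SE 0.15) and Dab1 at -0.33 (SE 0.19) between Het DMSO and WT DMSO. Without 409 and 411 the medians were -0.01, -0.01 and 0.02, edgeR again called 0 of 12, and Vldlr was at -0.02 (SE 0.094), Lrp8 at -0.21 (SE 0.077, unadjusted p 0.0231, edgeR adjusted p 0.703) and Dab1 at -0.09 (SE 0.15). Without 411 alone the 3 values were -0.04, 0.04 and -0.16. Between Het Hit 2 and WT DMSO without 409 and 411, Lrp8 was at -0.22 (SE 0.062, unadjusted p 0.00588, edgeR adjusted p 0.233). Vldlr was at -0.08 (SE 0.076) and Dab1 at -0.16 (SE 0.12) in that fit. In library 411, where Reln was 8.27-fold lower, these genes lay on both sides of the other libraries. There 5 of the 12 were below every other library, among them Vldlr at 105 CPM, Lrp8 at 139 and Dab1 at 57.1, against at least 137, 149 and 82.1 elsewhere, and 4 were above every other library, among them Pafah1b1 at 549.8 CPM.

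Slc17a7, the glutamate transporter of parallel fibre terminals, was at 371, 364, 399 and 313 CPM in WT. In Het DMSO it was at 751 (409), 1.67 (411), 359.8 (420) and 285 (429), and in Hit 2 at 226 (410), 329.7 (421), 431 (422) and 276 (430). The groups overlapped in each comparison. Its log2 fold change between Het DMSO and WT DMSO was -0.05 (SE 0.91, edgeR adjusted p 0.984), 0.39 (SE 0.31, edgeR adjusted p 0.661) without 411 and -0.18 (SE 0.22, edgeR adjusted p 1.00) without 409 and 411.

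Calb2 had the lowest correlation with the mean of the other 8 members over the 10 libraries other than 409 and 411 (Pearson's r 0.316), but not without 411 alone, where Etv1 (-0.102) and Neurod1 (0.156) were below it (0.507). It was at 214, 185, 203 and 182 CPM in WT, at 563 (409), 93.1 (411), 300.01 (420) and 285 (429) in Het DMSO, and at 209 (410), 239 (421), 402 (422) and 221 (430) in Hit 2. The 3 Het DMSO libraries other than 411 lay above all WT libraries, and of the Hit 2 libraries only 410 reached into the WT range. Without 411, Calb2 was the only 1 of 9 members for which Het DMSO did not overlap WT, and 3.79% of all genes tested had Het DMSO above WT without overlap in those libraries. Calretinin is found in unipolar brush cells as well as granule cells, and Eomes, a transcription factor gene that marks unipolar brush cells, was at 12.3 to 31.9 CPM in WT, 0.202 to 13.0 in Het DMSO and 5.36 to 16.0 in Hit 2. Other genes of these cells did not share this order. Otx2 was at 7.35 to 22.9 CPM in WT, 9.39 to 23.5 in Het DMSO and 5.82 to 14.8 in Hit 2, and Lmx1a was at 1.07 to 3.09, 0.345 to 3.34 and 0.253 to 2.37 CPM in the same order. The part of unipolar brush cells in the Calb2 values was not tested.

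The log2 fold change of Calb2 between Het DMSO and WT DMSO was 0.66 (SE 0.40, edgeR adjusted p 0.618) in all 12 libraries. Without 411 it was 0.99 (SE 0.27, unadjusted p 0.00372, edgeR adjusted p 0.620), and an exact two-sided permutation test over 35 assignments of 7 libraries gave p = 0.0286, the smallest possible, or 0.386 after Benjamini-Hochberg adjustment over 27 tests. Without 409 as well, it was 0.57 (SE 0.22, unadjusted p 0.0252, edgeR adjusted p 0.722), and the groups did not overlap, as for 8.31% of all genes in that direction. Between Het Hit 2 and WT DMSO the value was 0.45 (SE 0.40, edgeR adjusted p 1.00), 0.44 (SE 0.18, unadjusted p 0.0352, edgeR adjusted p 0.471) without 409 and 411, and 0.55 (SE 0.18, edgeR adjusted p 0.306) without 410 too. The size rested on single libraries: without 409 alone the value between Het DMSO and WT DMSO was 0.21 (SE 0.36, edgeR adjusted p 0.794), and without 422 alone that between Het Hit 2 and WT DMSO was 0.19 (SE 0.42, edgeR adjusted p 1.00). The sign was positive in both comparisons with WT in these fits, and the edgeR threshold was not passed in any of them. Between Het Hit 2 and Het DMSO the value was -0.21 (SE 0.40, edgeR adjusted p 0.908), and -0.13 (SE 0.22, edgeR adjusted p 0.985) without 409 and 411.

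Taken relative to Zic1 in the same library, Calb2 separated the knock-in mice from WT mice in the libraries as deposited. The Calb2 to Zic1 ratio was 0.264 to 0.325 in WT, 0.396 to 4.42 in Het DMSO and 0.346 to 0.556 in Hit 2, so that neither knock-in group overlapped WT. The ratio of 4.42 is that of library 411, where Zic1 was at 21.0 CPM and Calb2, at 93.1 CPM, was below every WT library. The ratio there is thus no sign of more Calb2. In the other Het DMSO libraries it was 0.776 (409), 0.415 (420) and 0.396 (429). Of all other genes, 1.73% had such a ratio higher in Het DMSO than in WT without overlap, and 6.51% had it higher in Hit 2 than in WT. Reln and Pax6 also had a higher ratio to Zic1 in Hit 2 than in WT without overlap, 3 of 8 members in all. The Neurod1 to Zic1 ratio was 0.271 to 0.303 in Hit 2 and 0.311 to 0.331 in WT, and 0.862% of genes had such a ratio lower in Hit 2 without overlap. Zic1 was taken as the reference after these values were seen, because it followed the mean of the other members most closely over 10 libraries, so the ratios are descriptions with no test.

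As a list, 0 of 9 members passed the edgeR threshold between Het DMSO and WT DMSO, where 0.00516% of all genes did. Between Het Hit 2 and Het DMSO 0 of 9 passed (0% of all genes), and between Het Hit 2 and WT DMSO 0 of 9 passed (0.00516% of all genes). None of the 9 had an unadjusted p under 0.05 in any of the 3 comparisons over 12 libraries, beside 7.11%, 1.55% and 1.71% of all genes in the same order. DESeq2 also called 0 members, beside 0.222%, 0% and 0.124% of all genes. With library weights limma called 0 members as well, beside 0.506%, 0% and 1.14% of all genes. The 3 comparisons share their groups, so their values are not independent. The median log2 fold change of the members was -0.13 between Het DMSO and WT DMSO (0.05 over all genes), 0.09 between Het Hit 2 and Het DMSO (-0.04 over all genes), and -0.21 between Het Hit 2 and WT DMSO (0.02 over all genes). In the same fit 0 of the 12 other granule cell genes passed, with medians of -0.22, 0.06 and -0.16, and 0 of 12 tested relatives of the members passed, with medians of 0.01, -0.02 and -0.11. Without 409 and 411 the medians were -0.11, -0.17 and -0.17 for the other granule cell genes, so that the second changed sign, and -0.01, -0.08 and -0.12 for the relatives, and 0 of either list passed.

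The edgeR fit and the means of log2 CPM gave opposite signs for some members, and the reason was not tested. For Fat2, Reln and Slc17a7 the fitted change between Het Hit 2 and Het DMSO was below 0 in the 12 libraries, while the difference of mean log2 CPM was 1.97, 0.48 and 1.51. No exact permutation test of these members in that comparison gave a p below 0.514.

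The medians turned on libraries 409 and 411. Between Het DMSO and WT DMSO the members' median was 0.31 without 411, -0.52 without 409 and -0.006 without both. Between Het Hit 2 and Het DMSO it was -0.34 without 411, 0.37 without 409 and -0.18 without both, with all 9 members negative in the last case. Without library 410 too it was -0.07, with 7 of 9 negative. Without both libraries edgeR still called 0 of 9 members in each comparison, beside 0.0895%, 0% and 0.448% of all genes, and 1, 2 and 3 members had an unadjusted p under 0.05, beside 5.83%, 3.72% and 9.5% of all genes.

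**Figure D3:**
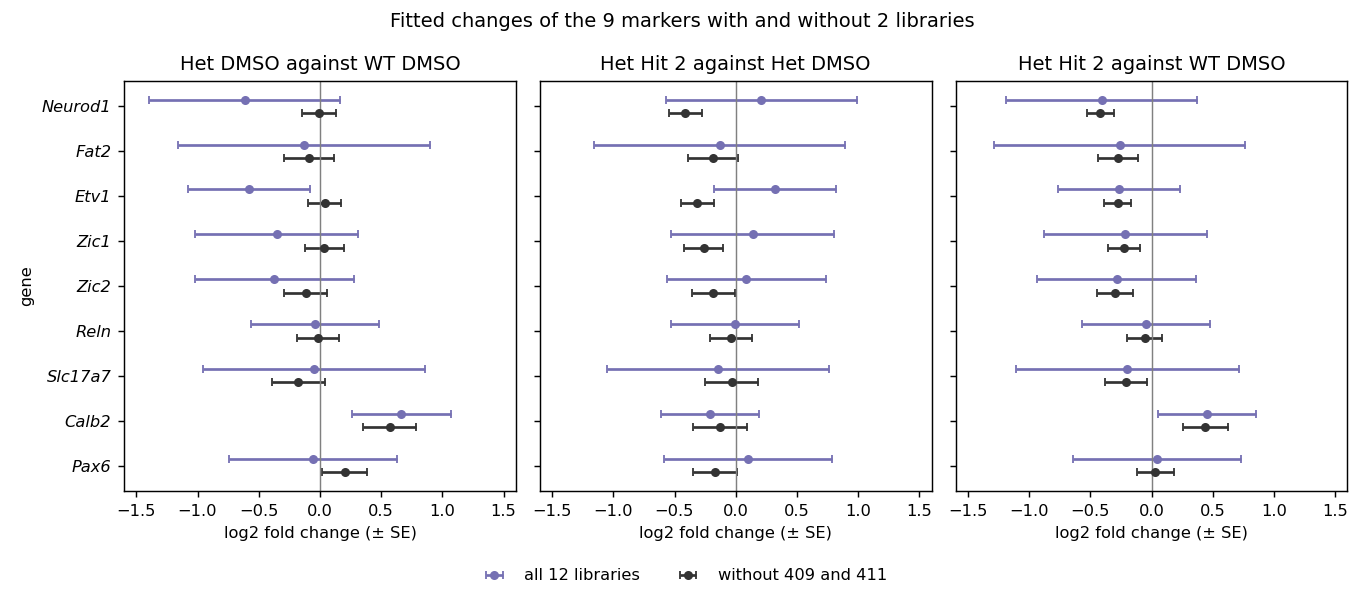
Fitted log2 fold change (points) with its standard error (bars) for the 9 markers in the 3 comparisons, with all 12 libraries and without libraries 409 and 411. Without the 2 libraries the bars shrink, Neurod1 sits at -0.41 and -0.42 in the comparisons of Het Hit 2 with Het DMSO and WT DMSO, and Calb2 sits above 0 in both comparisons with WT DMSO.

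Between Het Hit 2 and WT DMSO the members were lower by a median of 0.23 on the log2 scale without 409 and 411 (median log2 fold change -0.23), with 7 of 9 negative. Genes of other cells differed in direction in the same comparison and libraries. The 10 Purkinje cell genes had a median of -0.49, with 10 of 10 negative, 9 at an unadjusted p under 0.05 and 0 called by edgeR, and the 8 Bergmann glia and astrocyte genes had a median of -0.27, with 8 of 8 negative and 1, Aldoc, a glycolytic enzyme gene that Purkinje cells also express, called lower (edgeR adjusted p 0.0377). The 8 inhibitory interneuron genes had a median of -0.07, with 3 positive, the 6 oligodendrocyte genes a median of 0.16, with 6 positive, and of the 6 microglia genes 5 were positive. Their part in the granule cell values was not tested. Library 410 was below the median of the 9 libraries other than 409, 410 and 411 for 9 of 9 members, at least 1.5-fold for 4 of them, where 6.95% of all genes were that much lower. Library 430 was below the median of the 8 libraries other than these 3 and itself for 9 of 9 members, at least 1.5-fold for 1, where 4.21% of all genes were. The largest differences were 1.66-fold for Neurod1 in 410 and 1.53-fold for Fat2 in 430.

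Markers of other tissue were high in library 410 and, for some genes, in library 430. In library 410 the midbrain and brainstem genes summed to 50.6 CPM, with the serotonin neuron genes Slc6a4 at 14.9 and Tph2 at 16.0 CPM, and the oligodendrocyte genes summed to 5371 CPM, both above all libraries except 411. In library 430 the midbrain and brainstem sum was 15.0 CPM, inside the WT range of 12.3 to 19.2 CPM, to which Th alone gave 6.60 to 17.5 CPM in WT and 4.46 CPM in 430. Gata3 at 3.38 CPM and Pou4f1 at 4.08 CPM were above all WT libraries there (at most 1.32 and 0.714 CPM), and the 6 forebrain genes summed to 14.0 CPM against 3.04 to 7.71 CPM in WT. In the same library the oligodendrocyte sum was 2057 CPM, inside the WT range of 1745 to 3314 CPM. Slc17a6 was at 84.6 CPM in 410 and 48.5 CPM in 430, against at most 37.5 CPM in WT. The part of this tissue in the lower granule cell values was not tested. Without library 410 (and 409 and 411) the members' median between Het Hit 2 and WT DMSO was -0.10.

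**Figure D4:**
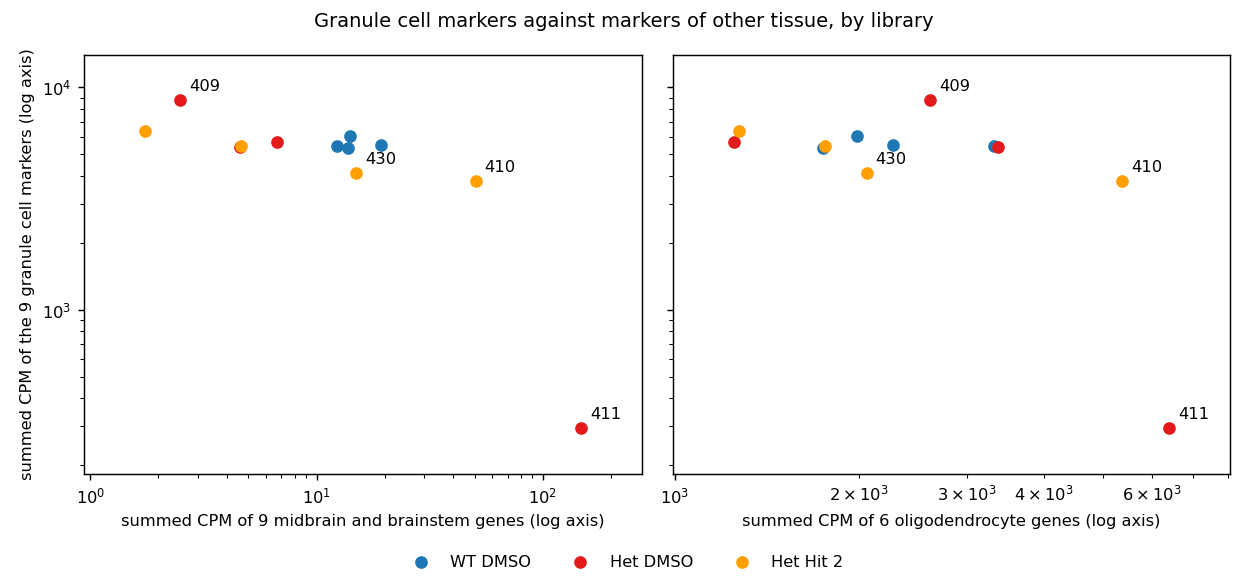
Summed level of the 9 granule cell markers against summed levels of 9 midbrain and brainstem genes (left) and 6 oligodendrocyte genes (right), 1 point per library, all axes logarithmic. Library 411 is far down and to the right at 294 CPM of granule cell markers, library 410 is the next lowest at 3807 CPM, and library 409 is highest at 8735 CPM.

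Library 409 differed in the balance among the markers rather than in their presence. Calb2 was 2.59-fold, Slc17a7 2.18-fold, Fat2 1.85-fold and Reln 1.77-fold above the median of the 10 libraries other than 409 and 411. Pax6 (1.42-fold), Zic2 (1.25-fold) and Zic1 (1.05-fold) were less far above, while Neurod1 was 1.59-fold and Etv1 1.93-fold below. The ratio of Fat2 to Neurod1 was 29.9 in this library and 8.89 to 13.0 in the 10 others. Of the 9 members 2 were at least 1.5-fold lower and 4 at least 1.5-fold higher, against 31% and 20.8% of all genes.

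Other properties of library 409 also stood apart. Its share of multimapping reads, 7.01%, and of ambiguous reads, 1.33%, were the highest of the 12, and the fewest genes (24361) had a read although its gene reads were the most numerous. The G and C content of transcripts was lowest for Neurod1 (43.6%) and Etv1 (46.1%), the 2 members that were low, and highest for Zic2 (56.9%) and Slc17a7 (56.6%). Pearson's r across the 9 members between that content and the log2 difference of 409 was 0.62, as a description over 9 genes of 1 library. Reln, at 47.7%, was high in this library all the same. What part read composition has in these differences was not tested.

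**Figure D5:**
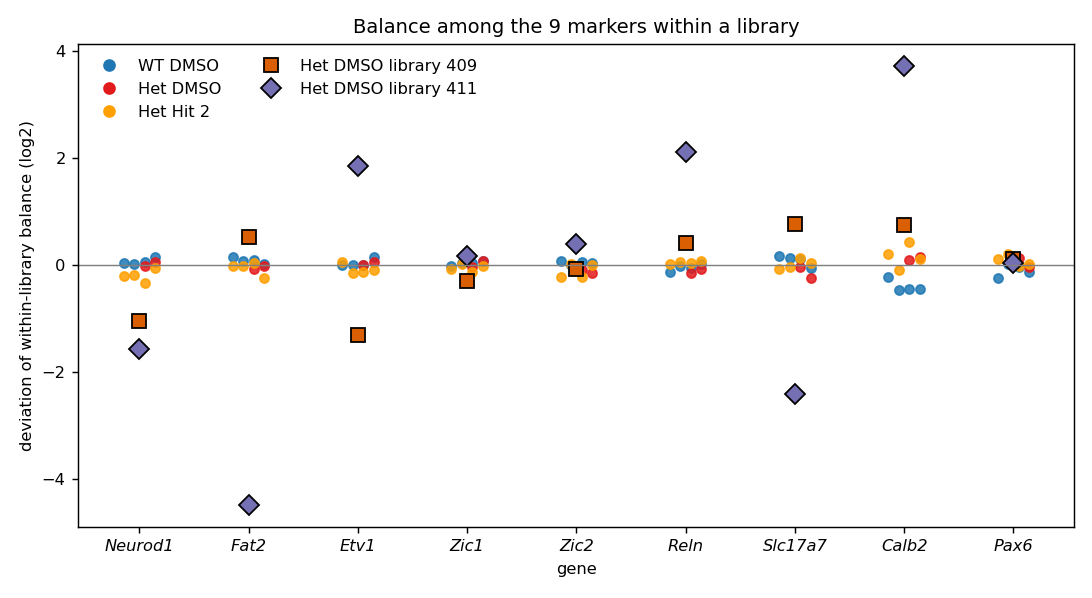
Deviation of each marker from its usual share of the signal within a library (log2 CPM minus the library's mean over the 9 markers, relative to the median of the 10 libraries other than 409 and 411). Those 10 libraries lie between -0.46 and 0.43, with Calb2 below it in WT DMSO, while 409 and 411 both lie outside that range for Neurod1, Fat2, Etv1, Slc17a7 and Calb2, on the same side for Neurod1 and Calb2 and on opposite sides for the others.

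How far the 9 genes varied together depended on the libraries taken. The median Pearson r of log2 CPM over the 36 pairs of members was 0.976 in 12 libraries, 0.679 without 411 (8 pairs negative), 0.793 without 409 and 411 (0 pairs negative) and 0.596 without 410 too (2 pairs negative). These values describe libraries that share depth, scaling and the tissue they were taken from. In 10 libraries the coefficient of variation across mice was 13.4% for Reln, the lowest of the 9, and 27.8% for Calb2, the highest.

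The genes most like each member over the 11 libraries other than 411 were different for each. By Pearson's r of log2 CPM across 16594 genes they were Exph5 for Neurod1 (0.959), Kcnk10 for Fat2 (0.979), Gm44745 for Etv1 (0.987), Chd7 for Zic1 (0.961) and Hdac8 for Zic2 (0.960). For Reln it was Osbp2 (0.990), for Slc17a7 Shank3 (0.988), for Calb2 Pdhb (0.961) and for Pax6 Gapvd1 (0.982). With library 411 included, Gabrd, Cbln3 and Neurod2 were among the 3 highest for some members, which they were not without it. In library 411 they were at 0.353, 2.52 and 1.97 CPM, each below all other libraries. At rank 1 were Gabrd for Slc17a7 (0.999) and Neurod2 for Zic2 (0.998). Gabrd was at rank 2 for Fat2 (0.998) and Zic2 (0.997) and at rank 3 for Pax6 (0.996). Cbln3 was at rank 2 for Zic1 (0.998). At rank 1 for these were Phgdh-ps1 for Fat2 (0.998) and Pax6 (0.997), and Gm2694 for Zic1 (0.999). Cerkl, the third for Neurod1 (0.997), overlaps Neurod1 on the same strand in the annotation and was at 1.36 CPM in library 411. Whether reads of the one were counted for the other was not tested.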

How the data were processed

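The deposited files hold raw gene counts, unnormalized, in STAR's output layout with a separate file for each of the 12 mouse cerebellum libraries. Per the submitters' processing notes, STAR 2.7.10a, FastQC 0.11.9 and the genome GRCm39 (mm39) were used. The annotation release is not given in the sources used here. Per the labels, the kit keeps strand, input was 500 ng after removal of rRNA, PCR ran for 13 cycles, and sequencing was paired-end with 100 bases each. The counts of the strand opposite to the first read were used, since 5.21% to 6.47% of gene reads lay on the other strand. Reads not assigned to a gene (44.7% to 54.6% of reads), multimapping (4.08% to 7.01%), unmapped (3.70% to 6.53%) and ambiguous reads (0.761% to 1.33%) stayed out of library sizes and tests. Symbols, strands and exon lengths came from GENCODE M21 (GRCm38), which matched 55141 of 55401 identifiers. No gene coordinates are given because the builds differ, and the promoter coordinates are those of RefSeq's own build.

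Groups came from the labels. edgeR 4.0.16 (R 4.3.3) was fitted to all 12 libraries with 1 coefficient per group, filterByExpr, TMM factors and two-sided quasi-likelihood tests, with Benjamini-Hochberg adjustment over all 19378 genes and a threshold of 0.05. CPM use the TMM-scaled library sizes and log2 CPM a prior count of 2. Standard errors were derived from the F statistic. The edgeR step was tested on simulated data. Alternatives were DESeq2 1.42.0, limma 3.58.1 with library weights, other filters, strands, scalings and left-out libraries. Leaving out 409, 410 and 411 together was chosen after seeing midbrain and brainstem genes in 410. No pairing of libraries was made.

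The members and all gene lists were chosen with earlier results of these data known. All 9 members are named, further genes only for their role, as relatives of a member, or as the genes highest in Pearson's r with it among those with a mean of at least 1 CPM.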

Additional observations from a re-analysis of the deposited data

Results flagged for a closer look

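In groups of 4, a library was marked where its distance to the nearest other library, over the range of the group, exceeded Dixon's critical value on log2 CPM. Of 27 checks (9 genes in 3 groups) 6 were marked, where chance alone gives about 1 in 20, or 1.35 of 27. All 6 are library 411 in the Het DMSO group. Its log2 CPM was 0.99 for Neurod1 (the next library was at 7.07), 1.40 for Fat2 (next 11.05), 4.40 for Zic1 (next 9.49), 3.32 for Zic2 (next 7.97), 0.80 for Slc17a7 (next 8.16) and 1.98 for Pax6 (next 7.11). Etv1, Reln and Calb2 were also lowest in library 411 without passing this value.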

How the results depend on the processing

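No paired analysis was possible because animal numbers do not recur between groups. Under 22 alternatives, 0 of the 27 member results (9 genes in 3 comparisons) ever passed an adjusted p of 0.05, and 532 of 594 member values kept their sign while 62, in 19 results, changed it. The causes were not tested. For Het DMSO against WT DMSO, where the fit of 12 libraries called 1 gene, 43 genes were called by DESeq2, 0 with only the 2 groups compared, 98 by limma with library weights, 18 without 409 and 411, 84 without 409, 410 and 411, and 0 without WT libraries 425 and 426. For Het Hit 2 against WT DMSO, also 1, the counts were 24 by DESeq2, 4 with no filter, 2 unstranded, 54 with only the 2 groups, 221 by limma with weights, 90 without 409 and 411, 109 without 410 too, and 0 without 425 and 426.

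Leaving out each library in turn gave 0 to 9 genes called for Het DMSO against WT DMSO (9 without 411, 4 without 409) and 0 to 14 for Het Hit 2 against WT DMSO (14 without 411, 5 without 409, 2 without 429). The members' median ranged from -0.52 (without 409) to 0.31 (without 411) for Het DMSO against WT DMSO and from -0.34 (without 411) to 0.37 (without 409) for Het Hit 2 against Het DMSO. In the same fits for Het DMSO against WT DMSO, Slc17a7 ranged from -0.75 to 0.39, Pax6 from -0.36 to 0.37, Fat2 from -0.66 to 0.31, Zic1 from -0.52 to 0.0647, Zic2 from -0.66 to 0.0458 and Reln from -0.51 to 0.35. For Het Hit 2 against Het DMSO, Reln ranged from -0.41 to 0.46, Fat2 from -0.58 to 0.40, Slc17a7 from -0.60 to 0.54, Calb2 from -0.55 to 0.24, Neurod1 from -0.22 to 0.50, Etv1 from -0.065 to 0.63, Zic1 from -0.29 to 0.30, Zic2 from -0.34 to 0.37 and Pax6 from -0.33 to 0.39. For Het Hit 2 against WT DMSO, Pax6 ranged from -0.0535 to 0.13 and Reln from -0.18 to 0.061.

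Other changes of sign for Het DMSO against WT DMSO were Pax6 at 0.0333 (limma with weights), 0.20 (without 409 and 411), 0.21 (without 410 too) and 0.0916 (without 425 and 426), Etv1 at 0.037 and 0.0455 and Zic1 at 0.0353 and 0.0439 (without 2 and 3 libraries), Neurod1 at 0.0025 (without 3), and Reln at 0.0213 and Slc17a7 at 0.0353 (without 425 and 426). For Het Hit 2 against Het DMSO, Reln was at 0.0362 (mean of at least 50 reads), 0.0015 (unstranded), 0.0254 (2 groups only), 0.10 (limma) and 0.0777 (without 3). Limma gave Neurod1 -0.14, Fat2 0.12, Etv1 -0.18, Zic1 -0.0397 and Slc17a7 0.21. Without 409 and 411, Neurod1 was at -0.41, Etv1 at -0.31, Zic1 at -0.26, Zic2 at -0.18 and Pax6 at -0.17, and without 410 too these were at -0.30, -0.24, -0.15, -0.0475 and -0.0692, with Slc17a7 at 0.10. For Het Hit 2 against WT DMSO, Reln was at 0.0036 (limma), 0.0139 (without 425 and 426) and 0.0689 (without 3). With 4 mice a group and 1 library near 0, the standard errors over 12 libraries (0.40 to 1.03) exceed most fitted changes.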
